A study of Mus musculus with 8 samples.

Results

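The genes described here are 10 markers of adipose fibroblasts and adipocyte progenitors, namely Pdgfra, Pdgfrb, Dpp4, Pi16, Cd34, Ly6a, Ly6c1, Dpt, Gsn and Clec3b. They were listed by name, with earlier results of these data known, and taken by symbol from a table of 31053 genes with no threshold on a measured value, and all 10 passed the filter on low counts that left 9264 genes for testing. Bulk RNA-seq libraries came from brown adipose tissue (BAT), a heat-producing fat, of 8 mice aged 8 weeks, 4 of them wild-type (WT) and 4 db/db. The db/db mice carry the Leprdb mutation of the leptin receptor gene and become obese, and the labels give C57BL6/J as the strain of all 8 mice, whereas the methods name the db/db mice B6.BKS(D)-Leprdb/J. The study's resource list gives the db/db mice only a Jackson Laboratory stock number, and which background they had is not settled here. The study names different suppliers for the genotypes in one place and the same supplier in another, and any difference in strain background or source between the genotypes cannot be told apart from the mutation. The mice received no other treatment according to the labels, apart from the fast before collection that the methods describe for mice in general.

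Fat depots hold, beside adipocytes, a stroma of fibroblast-like cells that includes the progenitors of new adipocytes. In current descriptions of this stroma, PDGFRα marks most of its cells. DPP4 and PI16 mark an early, interstitial progenitor that lies in the connective tissue sheets, ICAM1 and its companions mark a more committed preadipocyte, and PDGFRβ is shared with the mural cells of vessels. Dermatopontin, gelsolin and tetranectin (Dpt, Gsn and Clec3b) are products of fibroblasts at large. CD34, Sca-1 (Ly6a) and Ly6C (Ly6c1) are used to sort progenitors, but endothelial cells make them too.

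In db/db BAT, 7 of the 10 markers were higher than in WT by edgeR's quasi-likelihood test at an adjusted p of 0.05, 0 were lower and 3 did not pass. DESeq2 and limma-voom gave the same counts, and at an unadjusted p under 0.05 edgeR had 1 lower marker, Ly6c1. Over all genes tested, 15.8% were called higher and 11.9% lower. Ordered by log2 fold change (db/db over WT), the 7 were Dpp4 at 2.57, Dpt at 2.45, Pi16 at 1.95, Clec3b at 1.57, Gsn at 1.43, Pdgfra at 1.24 and Cd34 at 0.72. Pdgfrb (0.55), Ly6a (0.37) and Ly6c1 (-0.38) did not pass the test. The median of the 10 log2 fold changes was 1.34, against 0.00664 over all genes tested. For the same 7 genes every db/db library lay above every WT library, a pattern that 15.3% of all tested genes showed, while 12.7% showed the opposite. Of the 10 genes, 3 (Pdgfra, Dpp4 and Pi16) were under the level of the filter in at least 1 WT library. They entered the test through the db/db libraries, so their place among the higher genes is in part set by the filter, and where at least 10 counts were asked of every library, 4 markers were higher. With no filter beyond 1 count 7 were higher, these 3 among them (adjusted p = 0.00454 for Pdgfra, 1.40e-04 for Dpp4 and 2.09e-12 for Pi16). Their log2 fold changes there were 1.19, 2.51 and 1.89, close to the main fit. Their SEs were 0.34, 0.57 and 0.25, against 0.44, 0.46 and 0.40 in the main fit. That fit takes in genes near 0 counts, so its p values are not comparable with those of the main fit.

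**Figure D1:**
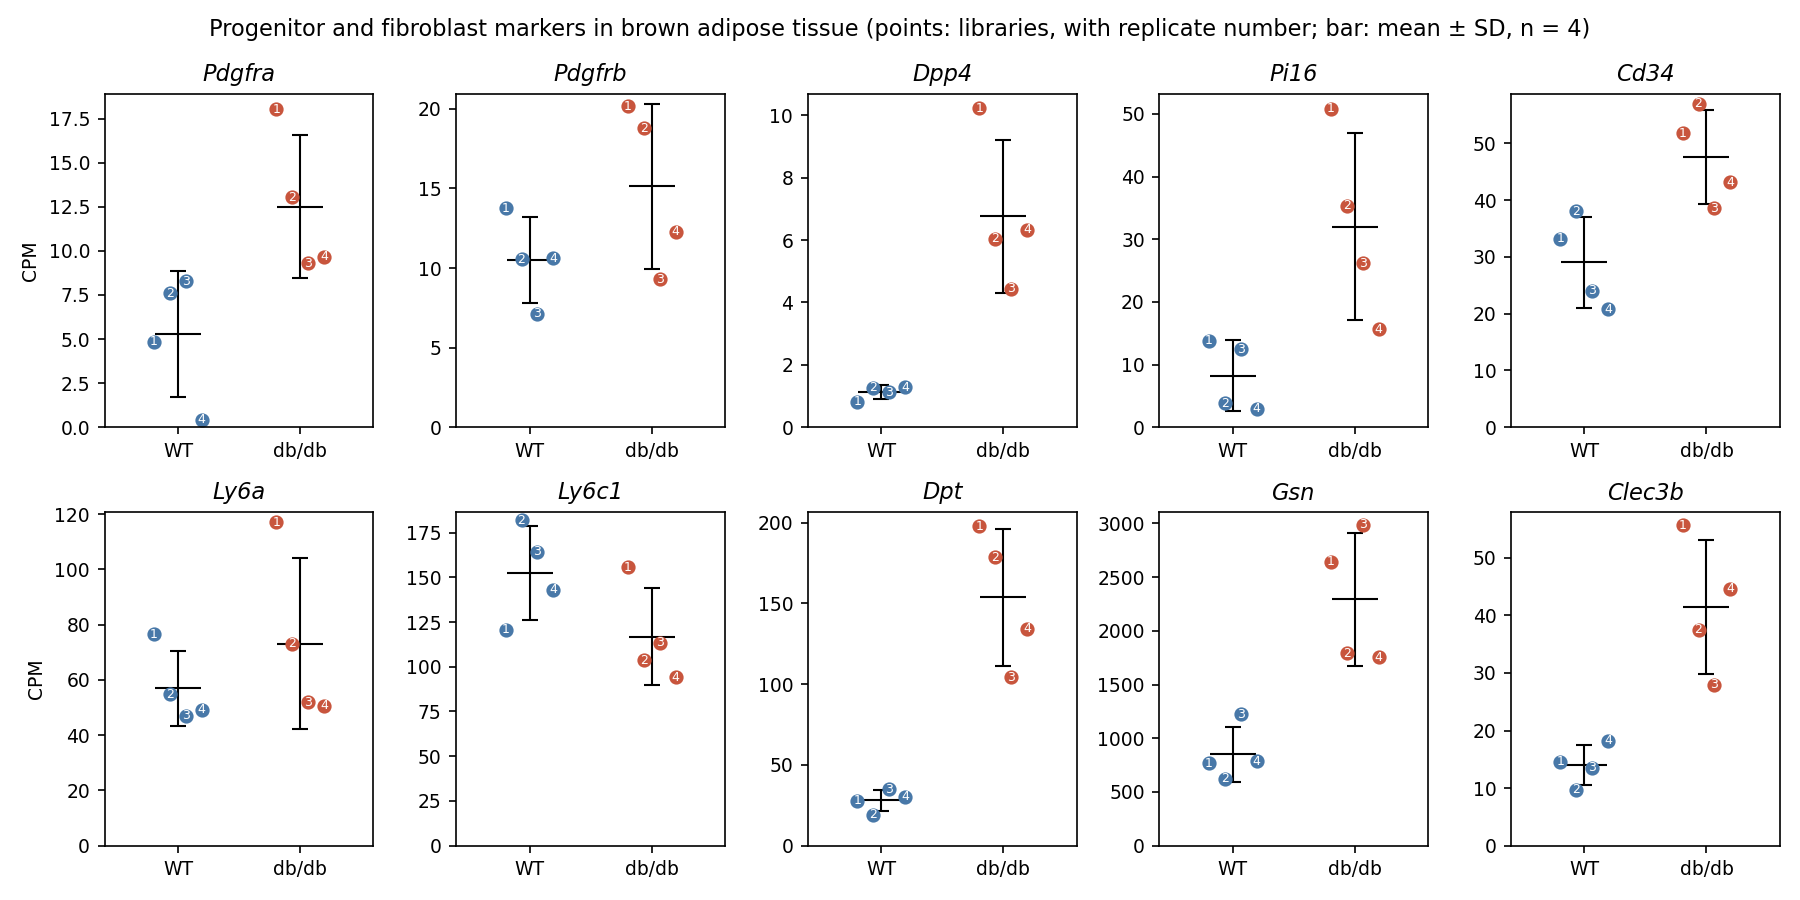
Level of each of the 10 markers in every library, in CPM (scaled counts) on a linear axis from 0, with WT in blue and db/db in red, the replicate number inside each point, and the mean ± SD of 4 libraries as a bar. The points of WT and db/db do not overlap for Pdgfra, Dpp4, Pi16, Cd34, Dpt, Gsn and Clec3b, and they overlap for Pdgfrb, Ly6a and Ly6c1.

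Total counts were between 2374079 and 3240074 per library, so that 3 counts, taken as the floor of detection, corresponded to 0.902 to 1.33 CPM. CPM here are counts divided by the library size over the tested genes times its TMM factor, which corrects for differences in composition. The labels give the stromal vascular fraction as cell type beside BAT as tissue, but the adipocyte list (Plin1, Adipoq, Fabp4, Cfd, Lipe and Pnpla2) summed to 14781 to 23240 CPM in WT and 17069 to 21750 CPM in db/db. The libraries therefore held adipocyte RNA in both genotypes and are described as whole BAT. Replicate 1 of db/db stood apart in skeletal muscle genes, with a summed level of 12211 CPM where the rest of db/db had 2440 to 5464 CPM, and it was also the highest db/db library for 8 of the 10 markers. Among the lists described below, it had the highest db/db sums for pan-fibroblast (3347 CPM), mural (678 CPM) and macrophage (1304 CPM) genes. Its brown adipocyte sum (3752 CPM) was the lowest of db/db. Without it, 6 markers were higher and 1 (Ly6c1) was lower. In bulk tissue, more cells of a type and more RNA per cell cannot be told apart.

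Sequences upstream of the annotated starts of Dpp4, Dpt and Pdgfra, all higher in db/db, are shown beside that of Ly6c1, which did not rise. Ly6c1 has 2 starts in RefSeq, and the upstream one is shown, since the window of the other lies partly in an annotated exon. The windows run from 250 to 21 bases before the RefSeq start (build GRCm38.p6), 5′ to 3′ on the strand of the gene, and contain no base of a GENCODE exon. Capitals mark matches on either strand to the letters of 6 short motifs, which were the TATA box (TATAAA), the CCAAT box (CCAAT), the GC box (GGGCGG), the AP-1 site (TGANTCA), the SMAD element (CAGAC) and the TEAD site (CATTCC). No 2 of these motifs overlapped in the windows shown.
Dpp4, chr2:62412252-62412481, minus strand: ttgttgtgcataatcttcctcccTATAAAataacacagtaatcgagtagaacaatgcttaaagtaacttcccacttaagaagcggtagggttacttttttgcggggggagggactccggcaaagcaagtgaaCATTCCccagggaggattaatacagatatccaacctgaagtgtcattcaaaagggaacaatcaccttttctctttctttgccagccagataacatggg
Dpt, chr1:164796413-164796642, plus strand: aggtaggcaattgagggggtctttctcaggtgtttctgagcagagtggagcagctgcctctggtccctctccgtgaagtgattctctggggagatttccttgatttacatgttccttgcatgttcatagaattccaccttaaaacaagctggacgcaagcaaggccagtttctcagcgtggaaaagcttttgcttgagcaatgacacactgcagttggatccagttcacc
Pdgfra, chr5:75152001-75152230, plus strand: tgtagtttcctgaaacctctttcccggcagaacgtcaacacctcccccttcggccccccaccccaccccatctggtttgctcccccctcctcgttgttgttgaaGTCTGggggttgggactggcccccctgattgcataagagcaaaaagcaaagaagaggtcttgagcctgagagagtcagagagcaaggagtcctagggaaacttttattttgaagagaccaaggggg
Ly6c1, chr15:75048858-75049087, minus strand: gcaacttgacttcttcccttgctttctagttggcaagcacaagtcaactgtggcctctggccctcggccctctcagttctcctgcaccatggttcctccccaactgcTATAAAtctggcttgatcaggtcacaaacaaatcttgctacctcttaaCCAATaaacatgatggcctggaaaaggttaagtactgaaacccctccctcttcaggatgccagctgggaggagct

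The Dpp4 window held a TATA box beginning 227 bases before the start and a TEAD site at 118 bases. The Pdgfra window held a SMAD element on the other strand at 146 bases, the Ly6c1 window a TATA box at 143 and a CCAAT box at 95 bases, and the Dpt window none of the 6. In the Ly6c1 window not shown, a SMAD element on the other strand lay 133 bases before the start. Among the 32851 RefSeq windows of 230 bases, 11.8% contained the TATA box, 32.2% the CCAAT box, 29.8% the GC box, 6.34% the AP-1 site, 39.7% the SMAD element and 11.8% the TEAD site. No motif of the 6 occurred in all 3 windows shown of the higher genes, which says only that these letters are not shared there. Windows were also at hand for the higher genes Cd34, Gsn and Pi16. That of Cd34 held none of the 6 motifs. Of the 3 Gsn windows, 2 held a SMAD element, 2 a CCAAT box and 2 a GC box, and the Pi16 window, which lies wholly in annotated exons, held a SMAD element and a CCAAT box.

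The receptors of platelet-derived growth factor come first, since PDGFRα defines the fibroblast lineage of adipose tissue and PDGFRβ is carried by mural cells and part of the progenitors. Pdgfra (ENSMUSG00000029231, chromosome 5, 75152292 to 75198215, GRCm38) was at 4.86, 7.60, 8.27 and 0.424 CPM in WT replicates 1 to 4 and at 18.0, 13.0, 9.31 and 9.67 CPM in db/db replicates 1 to 4. WT replicate 4, with 1 count, was the lowest WT library, and the lowest db/db library was only slightly above the highest of WT. The mean rose from 5.29 ± 3.56 to 12.5 ± 4.05 CPM (SD, n = 4 each), a log2 fold change of 1.24 with a standard error of 0.44 (edgeR adjusted p = 0.0457). This call was the least stable of the 7. It was lost without WT replicate 1 (adjusted p = 0.0999), without WT replicate 4 (log2 fold change 0.85, adjusted p = 0.0811), and without db/db replicate 1 (0.136), 2 (0.0833) or 3 (0.0504).

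Pdgfrb (ENSMUSG00000024620, chromosome 18) was at 13.8, 10.6, 7.14 and 10.6 CPM in WT and at 20.2, 18.8, 9.31 and 12.3 CPM in db/db. Replicates 1 and 2 of db/db were above all WT libraries, while replicates 3 and 4 fell among them. Its log2 fold change of 0.55 had a 95% interval from -0.07 to 1.16 (edgeR adjusted p = 0.179), so neither no change nor a doubling was beyond the interval.

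Of the 4 PDGF ligands, 3 were tested and Pdgfa passed. Pdgfa, whose product binds PDGFRα, was at 17.0, 24.9, 24.4 and 15.3 CPM in WT and at 51.1, 64.6, 57.2 and 59.1 CPM in db/db. Even the lowest db/db library was above the highest WT library by a wide margin. Its log2 fold change was 1.50 ± 0.19 (SE; edgeR adjusted p = 1.32e-05). Pdgfd, a ligand of PDGFRβ, had a log2 fold change of 0.53 (adjusted p = 0.138) and Pdgfb, the ligand that recruits pericytes, of 0.03 (adjusted p = 0.961). Pdgfc, a further ligand of PDGFRα, was under the filter, with 1 to 7 counts in WT and 8 to 12 in db/db. Among 11 genes of the signalling machinery next to the receptors, 9 were tested and 1, the adaptor gene Grb2 (log2 fold change 0.60, adjusted p = 0.0211, named after its values were seen), was higher. The Grb2 call was lost without WT replicate 1 (adjusted p = 0.0629) or 3 (0.0682) and without db/db replicate 4 (0.0775). Without WT replicate 3 this list had 0 genes higher and 1 lower, where it had 0 lower with all libraries.

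**Figure D2:**
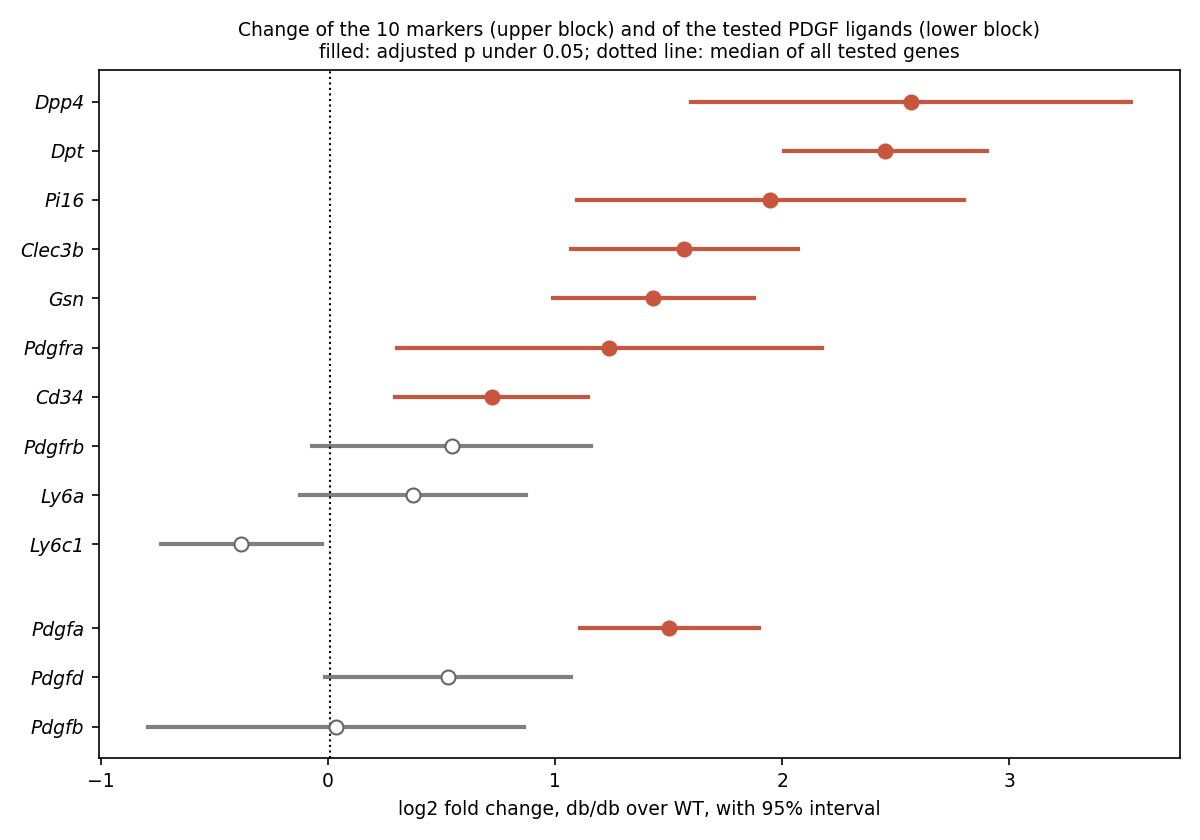
log2 fold change (db/db over WT) with its 95% interval for the 10 markers, ordered by size, and below them for the 3 tested PDGF ligands, with filled points where the adjusted p was under 0.05 and a dotted line at the median of all tested genes (0.00664). The intervals of Pdgfrb and Ly6a cross 0, and that of Ly6c1 lies just under it, from -0.74 to -0.03, although its adjusted p was 0.100.

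Dpp4 and Pi16, the markers of the interstitial progenitor, were scarce in WT. Dpp4 (ENSMUSG00000035000, chromosome 2, 62330073 to 62412231), which encodes a membrane dipeptidyl peptidase, had 2, 3, 3 and 3 counts in WT and 34, 19, 10 and 17 counts in db/db. All WT libraries thus lay at or under the floor, and every db/db library was above it. On the summed counts, 11 in WT and 80 in db/db, the ratio of db/db to WT was 6.28 with a counting interval (95%, exact binomial) of 3.33 to 13.1. The fitted log2 fold change was 2.57 with a standard error of 0.46 (edgeR adjusted p = 4.21e-04), and it depends on the small counts of WT.

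Pi16 (ENSMUSG00000024011, chromosome 17, 29317680 to 29330593), which encodes a secreted protein of the CRISP family, was at 13.8, 3.80, 12.4 and 2.97 CPM in WT and at 50.8, 35.3, 26.2 and 15.6 CPM in db/db. Both genotypes were spread widely, with a 4.63-fold range within WT and a 3.25-fold range within db/db, but they did not overlap. Pi16 had a log2 fold change of 1.95 ± 0.40 (SE; edgeR adjusted p = 0.00148). Crispld2, a CRISP family relative, had a log2 fold change of 0.38 (adjusted p = 0.269). Fap, the fibroblast protease closest in kind to DPP4, was higher by 1.38 ± 0.38 (adjusted p = 0.0119), a call lost without db/db replicate 1 (adjusted p = 0.0563). Fap was under the level of the filter in WT libraries and entered the test through db/db.

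The list of 13 other interstitial progenitor markers had 8 tested genes, of which 7 were higher and 0 lower, with a median log2 fold change of 2.20. Of these 8 genes, 5 (Mfap5 and Cd55 among them) were under the level of the filter in at least 1 WT library and entered the test through db/db, and with at least 10 counts in every library 4 were higher. Mfap5, a microfibril protein gene, was at 12.5, 8.86, 3.76 and 14.9 CPM in WT and at 116, 66.5, 35.9 and 63.2 CPM in db/db. Its groups were well apart, and its log2 fold change was 2.83 ± 0.35 (SE; edgeR adjusted p = 1.26e-05). Fbn1, which encodes fibrillin-1, rose by 2.28 ± 0.35 (adjusted p = 1.12e-04) and Igfbp6, an IGF-binding protein gene, by 1.85 ± 0.33 (adjusted p = 4.25e-04). Cd55, a complement regulator that is used to sort these cells, was the tested gene that did not pass (0.85, adjusted p = 0.138). It is named after its values were seen.

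The list of 8 committed preadipocyte markers did not move together. Of the 7 tested, 2 were higher, 1 was lower and 4 did not pass, and the median log2 fold change was 0.25. Of these 7, 4 were under the level of the filter in at least 1 WT library and 1 in at least 1 db/db library. Cxcl14, a chemokine gene, was at 105, 88.2, 92.8 and 138 CPM in WT and at 36.4, 18.1, 10.2 and 19.3 CPM in db/db. Every db/db library was below every WT library, and Cxcl14 fell by 2.30 in log2 units (SE 0.26, adjusted p = 5.48e-06). Col15a1, a basement membrane collagen gene named after its values were seen, rose by 2.60 ± 0.40 (adjusted p = 9.75e-05), having passed the filter through db/db, and Apod, an apolipoprotein gene, by 1.07 ± 0.30 (adjusted p = 0.0122). The Apod groups overlapped, and its call was lost without db/db replicate 1 (adjusted p = 0.0557). Sparcl1, the most abundant of the list, stood at 0.25 (adjusted p = 0.266), and Icam1, the defining marker, was under the filter with 3 to 7 counts in WT and 1 to 14 in db/db, and is named after its values were seen. Whether the interstitial and committed lists differ in their change was not tested. Of the 6 genes of adipogenesis-regulatory stroma, 2 were tested and neither passed (Fmo2 at -0.16 and Meox2 at 0.44). The third gene of that list by level, Gdf10, had 4 to 7 counts in WT and 11 to 23 in db/db and was not tested, nor was Clec11a, a C-type lectin relative of Clec3b.

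Dpt, Gsn and Clec3b, genes of fibroblasts at large, all rose. Dpt (ENSMUSG00000026574, chromosome 1, 164796644 to 164824266), which encodes the matrix protein dermatopontin, was at 27.9, 19.0, 34.9 and 30.1 CPM in WT and at 198, 178, 104 and 134 CPM in db/db. The lowest db/db library was still far above the highest of WT, and both groups were narrow on the fold scale. The mean rose from 28.0 ± 6.68 to 154 ± 42.3 CPM (SD, n = 4 each), a log2 fold change of 2.45 with a 95% interval from 2.01 to 2.90 (edgeR adjusted p = 2.35e-07). Its adjusted p was the smallest of the 10.

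Gsn (ENSMUSG00000026879, chromosome 2, 35256380 to 35307892), which encodes the actin-severing protein gelsolin, was at 769, 623, 1221 and 786 CPM in WT and at 2643, 1791, 2986 and 1754 CPM in db/db. WT replicate 3 was the highest of WT but below all of db/db. Gsn had a log2 fold change of 1.43 ± 0.21 (SE; edgeR adjusted p = 7.00e-05). Gelsolin is made by many cell types, smooth and skeletal muscle and adipocytes among them. Of its relatives, Capg, a capping protein gene of macrophages, was higher by 2.61 ± 0.42 (adjusted p = 1.71e-04), having passed the filter through db/db, and Svil (supervillin), which muscle expresses strongly, by 0.73 ± 0.22 (adjusted p = 0.0180), the latter call being lost without WT replicate 1 (adjusted p = 0.0610).

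Clec3b (ENSMUSG00000025784, chromosome 9, 123150946 to 123157432), which encodes the plasminogen-binding lectin tetranectin, was at 14.6, 9.71, 13.5 and 18.3 CPM in WT and at 55.7, 37.5, 27.9 and 44.6 CPM in db/db. No db/db library fell into the WT range, and replicate 3 was the closest to it. The log2 fold change was 1.57 ± 0.24 (SE; edgeR adjusted p = 9.13e-05).

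The list of 18 pan-fibroblast genes gives the setting of these rises. Of its 16 tested genes, 16 were higher in db/db, with log2 fold changes from 0.88 to 2.95 and a median of 1.83. Of the 16, 3 were under the level of the filter in a WT library, and with at least 10 counts in every library 13 genes were higher. Dcn, which encodes the collagen-binding proteoglycan decorin, rose by 0.89 ± 0.17 (edgeR adjusted p = 7.82e-04), Col1a2 by 1.54 ± 0.23 (adjusted p = 6.89e-05) and Col3a1 by 2.06 ± 0.23 (adjusted p = 3.48e-06), the latter pair being chains of the interstitial collagens. The summed CPM of the list was 732 to 872 in WT and 1607 to 3347 in db/db. Among 12 mesenchymal transcription factor genes, 8 were tested. Prrx1 (2.26), Zfp423 (1.23), both named after their values were seen, and Ebf1 (1.0) were higher. Prrx1 and Zfp423 were under the level of the filter in at least 1 WT library and entered the test through db/db, and with at least 10 counts in every library 1 gene, Ebf1, was higher. Zfp423 passed no longer when any of 4 libraries was left out (adjusted p of 0.0947 to 0.135 without WT replicate 1 or 4 or db/db replicate 1 or 3). Ebf2, a factor of brown adipocytes and their precursors, fell by 0.59 (adjusted p = 0.0203), with overlapping groups, and without WT replicate 1 this call was lost (adjusted p = 0.0760), while Klf4 stood at 0.48 (adjusted p = 0.321).

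Cd34, Ly6a and Ly6c1, the surface markers shared with endothelium, had, with Pdgfrb, the 4 smallest log2 fold changes of the 10. Cd34 (ENSMUSG00000016494, chromosome 1, 194938819 to 194961279), which encodes a sialomucin, was at 33.2, 38.0, 24.0 and 20.8 CPM in WT and at 51.7, 56.9, 38.6 and 43.2 CPM in db/db. The highest WT library (38.0) and the lowest db/db library (38.6) almost touched. The log2 fold change of Cd34 was 0.72 ± 0.20 (SE; edgeR adjusted p = 0.0127), a call lost without WT replicate 4 (adjusted p = 0.0545). Its sialomucin relative Podxl stood at 0.11 (adjusted p = 0.860).

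Ly6a (ENSMUSG00000075602, chromosome 15, 74994877 to 74998031), which encodes the GPI-anchored Sca-1, was at 76.5, 54.9, 47.0 and 49.2 CPM in WT and at 117, 73.2, 51.9 and 50.6 CPM in db/db. Replicate 1 of db/db was above the WT range, and the other 3 lay inside it. The log2 fold change of 0.37 had a 95% interval from -0.13 to 0.87 (edgeR adjusted p = 0.264).

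Ly6c1 (ENSMUSG00000079018, chromosome 15, 75044018 to 75048830), a GPI-anchored protein gene of endothelium and part of the progenitors, was at 121, 182, 164 and 143 CPM in WT and at 156, 104, 113 and 94.1 CPM in db/db. All db/db libraries but replicate 1 were below WT, and replicate 1 was among them. The log2 fold change was -0.38 with a standard error of 0.17 (edgeR adjusted p = 0.100). The call depended on single libraries, since Ly6c1 fell by 0.56 without db/db replicate 1 (adjusted p = 0.0110) and by 0.50 without WT replicate 1 (adjusted p = 0.0407). With no filter beyond 1 count it passed too (adjusted p = 0.0334).

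The Ly6 genes share sequence. Of the stretches of 75 bases, the length of the reads, in GENCODE transcripts of Ly6c1, 19.0% also occurred in a transcript of another gene (Ly6c2 or Ly6a), and 6.33% of those of Ly6a did. The same share was 0.0744% for Pi16 and 0 for the other 7 markers. How the authors' counting treated reads that fit several genes is not given in the sources used here. The shares count distinct stretches and not reads, so they do not measure how uncertain both Ly6 levels are. Ly6c2, a gene of monocytes, had 0 to 8 counts in WT and 1 to 15 in db/db, and Ly6e, a Ly6 gene that most cells express, rose by 0.61 ± 0.18 (adjusted p = 0.0171), a call lost without WT replicate 3 (adjusted p = 0.0638) or 4 (0.0738) and without db/db replicate 3 (0.0613). Among 27 family relatives of the 10 markers, 11 were tested and 4 were higher, namely Capg, Svil, Ly6e and Lynx1 (1.62, named after its values were seen), or 3 without Capg when at least 10 counts were asked of every library. Fap is not among them, since it is counted in the pan-fibroblast list. Pdgfra, Dpp4, Cd34, Dpt, Gsn and Pi16 each overlap another annotated gene, and whether reads were counted by strand is not stated. Of the overlapping genes, the 4 in the table (Gm42802, Gm13561, Gm16897 and Gm32569, over Pdgfra, Dpp4, Cd34 and Dpt) had at most 2 counts in any library.

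Endothelial, mural and other marker lists were measured beside the 10 genes. Of 11 endothelial genes, 10 were tested, 0 were higher, 3 (Kdr, Tek and Emcn) were lower and 7 did not pass, with a median log2 fold change of -0.33. At an unadjusted p under 0.05, 0 were higher and 4 lower. Tek and Emcn passed the filter through WT, and with at least 10 counts in every library 2 genes, Kdr and Tek, were lower. Kdr, the VEGF receptor 2 gene, fell by 0.74 (SE 0.15, edgeR adjusted p = 0.00127), while Egfl7 (-0.35) and Pecam1 (-0.31) did not pass. Tek and Emcn are named after their values were seen. Tek passed no longer without WT replicate 4 (adjusted p = 0.125) or db/db replicate 2 (0.0545), and Egfl7 passed without db/db replicate 4 (0.0418). The summed CPM of the endothelial list was 464 to 538 in WT and 356 to 435 in db/db. Of 10 mural genes, 9 were tested and 5 were higher. Rgs5, a pericyte gene, rose by 0.51 ± 0.13 (adjusted p = 0.00669), and Acta2 (2.21) and Des (1.67), genes of smooth muscle cells that other contractile cells share, rose as well. The other 2, Mcam (1.38) and Cspg4 (1.02), are named after their values were seen. Cspg4 lost its call when any of 5 libraries was left out (adjusted p of 0.0679 to 0.131 without WT replicate 1, 2 or 3 or db/db replicate 1 or 2) and with the replicate number as a block (0.0632). It passed the filter through db/db, and with at least 10 counts in every library 4 mural genes were higher.

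**Figure D3:**
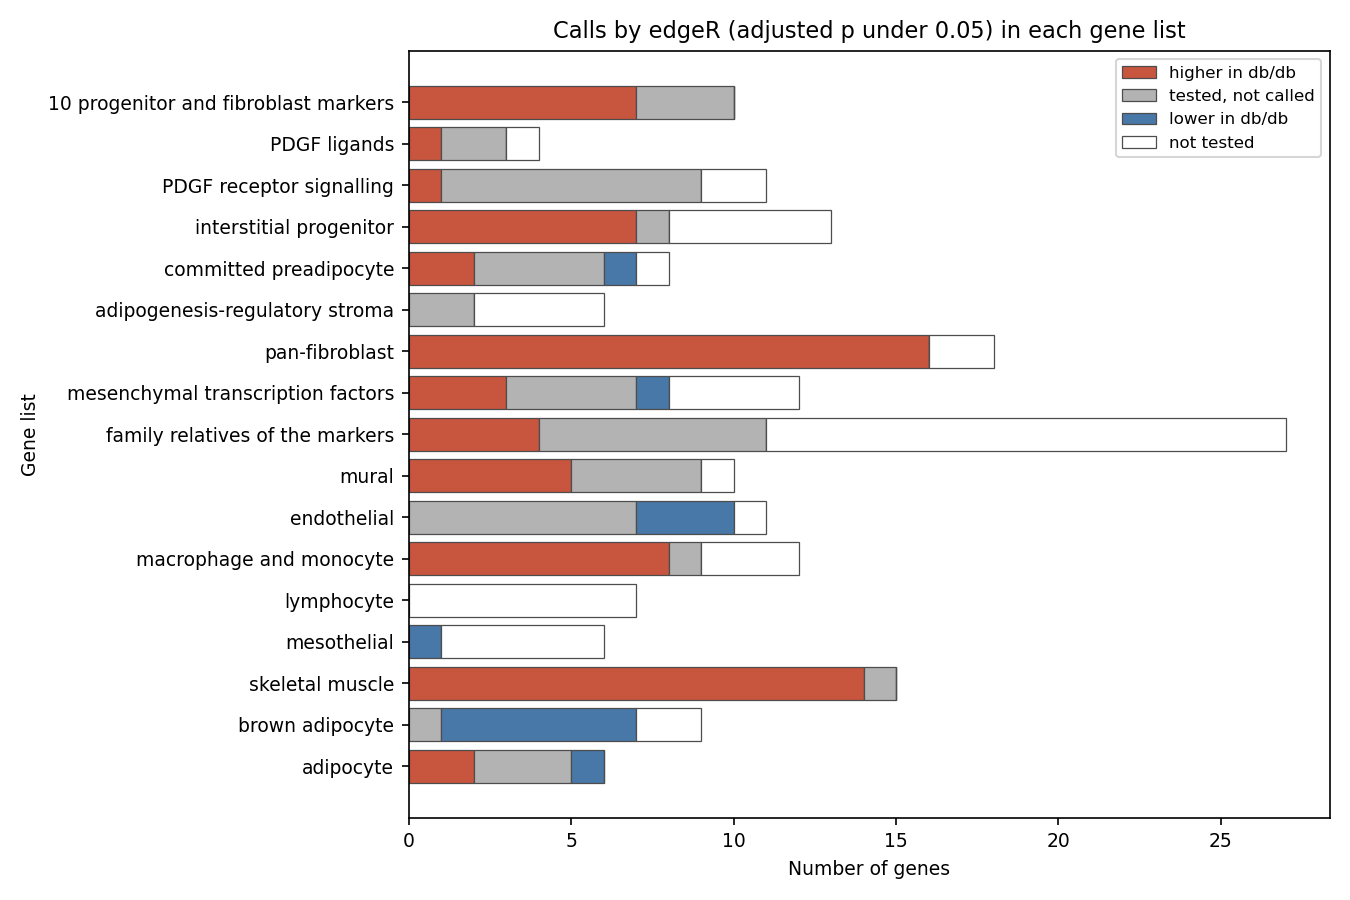
Number of genes in each list that were called higher (red), called lower (blue), tested and not called (grey) or not tested (white) by edgeR at an adjusted p of 0.05. The pan-fibroblast list is the longest red bar, with 16 genes, and the endothelial list has 0 genes higher and 3 lower.

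To relate the markers to the other cell types, each count was also expressed per 1000 counts of a list in the same library. Per 1000 pan-fibroblast counts, Dpt was at 26.0 to 40.1 in WT and at 59.0 to 79.7 in db/db. Dpp4 was at 0.962 to 1.73 in WT and at 2.70 to 3.51 in db/db. The groups of these 2 markers did not overlap, and db/db was the higher. Over all tested genes, 1.77% lay higher on this scale. Cd34, Ly6a and Ly6c1 did not overlap and stood lower, as did 71.1% of all tested genes. Ly6c1 was at 143 to 249 in WT and at 46.3 to 70.6 in db/db. Pdgfra, Pdgfrb, Pi16, Gsn and Clec3b overlapped between the genotypes. The ratio of Dpp4 in WT again rests on 2 or 3 counts per library.

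Per 1000 endothelial counts, the 7 markers called higher did not overlap, and 26.9% of all tested genes stood higher on that scale and 3.64% lower. Cd34 was at 43.9 to 74.1 in WT and at 97.9 to 160 in db/db. Ly6c1 was at 224 to 355 in WT and at 234 to 357 in db/db, so that its range was nearly the same in both genotypes. Ly6a and Pdgfrb overlapped too. Per 1000 mural counts, Pdgfrb was at 25.7 to 48.4 in WT and at 18.3 to 34.2 in db/db, which overlap. Dpp4 and Dpt stood higher, with a background of 4.05%, and Ly6c1 lower, with a background of 52.6%.

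**Figure D4:**
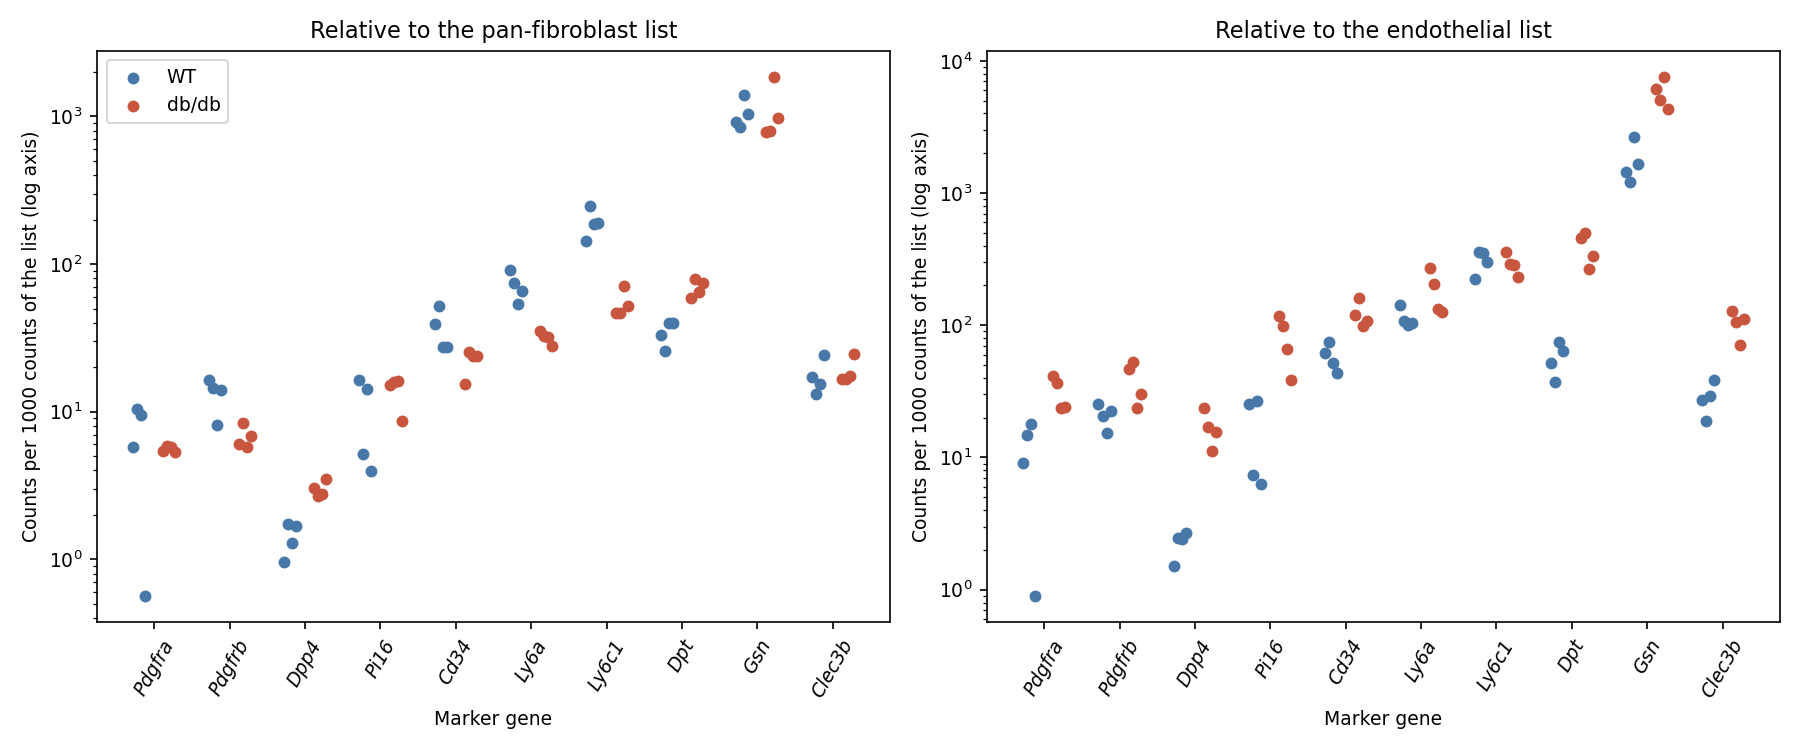
Counts of each marker per 1000 counts of the pan-fibroblast list (left) or of the endothelial list (right) on a log axis, 1 point per library, WT in blue and db/db in red. On the left Dpp4 and Dpt lie higher and Cd34, Ly6a and Ly6c1 lower in db/db, and on the right 7 markers lie higher and 0 lower.

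Genes of macrophages and of skeletal muscle moved with the genotype as the markers did. Of 12 macrophage and monocyte genes, 9 were tested and 8 were higher (6 with at least 10 counts in every library), with a median log2 fold change of 2.17, and the tested gene that did not pass was Cd14 (-1.03, adjusted p = 0.0997), named after its values were seen, which passed as lower without WT replicate 2 (adjusted p = 0.0159) and with no filter beyond 1 count (0.0426). Lyz2, the lysozyme gene of myeloid cells, rose by 2.79 ± 0.20 (edgeR adjusted p = 3.02e-08), C1qa by 2.07 and Csf1r by 1.83. The summed CPM of the list was 158 to 217 in WT and 738 to 1304 in db/db. Of 15 skeletal muscle genes, 14 were higher, Acta1 (3.05), Tnnc2 (3.05) and Tnni2 (2.89) among them, and Ryr1, named after its values were seen, did not pass (1.16, adjusted p = 0.0900) with all libraries and the count filter, but did with WT replicate 4 (adjusted p = 0.0415), db/db replicate 2 (0.0291) or db/db replicate 4 (0.0359) left out and with no filter beyond 1 count (1.48e-04). The count of 14 muscle genes became 13 with at least 10 counts in every library, and 12 with DESeq2, limma-voom or the replicate block. The summed CPM of the muscle list was 463 to 1645 in WT and 2440 to 12211 in db/db. No gene of these lists was at 0 throughout a genotype. Both sums separated the genotypes completely. With the level of the muscle list as a covariate, 1 marker (Dpt, log2 fold change 2.24, adjusted p = 1.93e-04) was higher and 1 (Ly6c1, -0.96, adjusted p = 0.0271) lower. The other 6 that had been higher stood in that fit at 1.88 ± 0.74 (Dpp4), 1.58 ± 0.68 (Pi16), 1.25 ± 0.38 (Clec3b, adjusted p = 0.0510), 1.07 ± 0.36 (Gsn), 1.05 ± 0.77 (Pdgfra) and 0.84 ± 0.36 (Cd34), each with a larger SE than without the covariate. Over all genes tested, 1466 higher and 1102 lower became 428 and 155 with the muscle list and 50 and 15 with the macrophage list. With the macrophage list as covariate 0 markers were higher and 0 lower. Dpt stood at 1.37 ± 0.51 there, Dpp4 at 1.15 ± 1.21, Cd34 at 1.04 ± 0.57, Gsn at 0.43 ± 0.52, Pdgfra at 0.29 ± 1.17, Clec3b at 0.25 ± 0.61 and Pi16 at -0.27 ± 0.90. Of the pan-fibroblast list 7 genes were higher with the muscle covariate and 0 with the macrophage covariate, and of the interstitial progenitor list 1 and 0. Pdgfa kept its call with the muscle covariate and lost it with the macrophage covariate (edgeR adjusted p = 0.0921). As both sums separate the genotypes, neither fit can tell its covariate apart from the genotype. The part of muscle and macrophage RNA in the rise of the markers was not tested.

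Lymphocyte genes were too scarce for a test in all 7 cases, with Cd79a, named after its values were seen, at 0 counts in every library. Of the 6 mesothelial genes, Upk3b, Upk1b and Wt1 had 0 counts in all 8 libraries and Msln 1 count in all, so the defining genes of mesothelium, these 4 named after their values were seen, were at or near 0. Of the mesothelial list 1 gene was tested, Lrrn4, which fell by 2.68 (adjusted p = 5.24e-04, named after its values were seen) and which passed the filter through WT. Of 9 brown adipocyte genes, 7 were tested and 6 were lower (3 without WT replicate 4), among them Cidea (-1.24), Ucp1 (-0.65) and Cox8b (-0.63), and Prdm16 did not pass (0.56, adjusted p = 0.188, named after its values were seen). Of the 6 adipocyte genes, Plin1 (0.79, named after its values were seen) and Fabp4 (0.65) were higher, Cfd (-2.66) was lower and 3, Pnpla2 (-0.18) among them, did not pass. The Ucp1 call was lost without WT replicate 4 (adjusted p = 0.0707) or db/db replicate 3 (0.0612), and that of Fabp4 without any of 5 libraries (adjusted p of 0.0705 to 0.122 without WT replicate 1, 2 or 4 or db/db replicate 2 or 3).

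**Figure D5:**
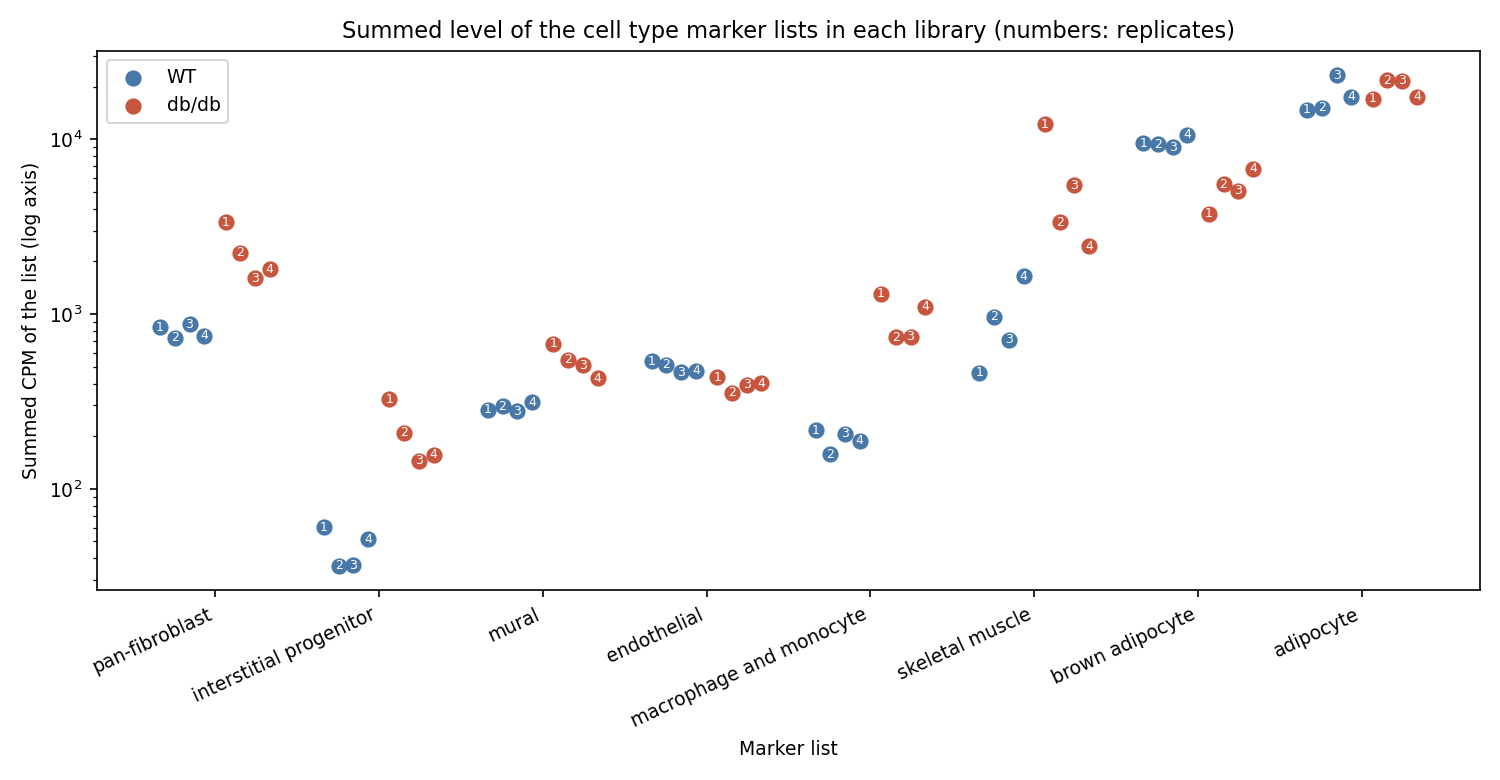
Summed CPM of 8 marker lists in each library on a log axis, with WT in blue, db/db in red and the replicate number inside each point. The pan-fibroblast, interstitial progenitor, mural, macrophage and skeletal muscle sums are higher and the endothelial and brown adipocyte sums lower in every db/db library, and db/db replicate 1 is the highest for skeletal muscle at 12211 CPM.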

How the data were processed

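RNA of BAT from 4 WT and 4 db/db mice was sequenced as single-end mRNA libraries. Per the labels, the submitters' processing notes name Trimmomatic, HISAT2 and DESeq2 on GRCm38/mm10, while the methods describe bbduk, STAR and HTSeq-count. The unit deposited by the authors that was used here is raw counts per Ensembl gene. Collapsing of PCR copies and strand in counting are not given in the sources used here. Deposited log2 normalized values and the sample sheet were not used.

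Identifiers were matched to GENCODE M21 (31011 of 31053 genes, the others holding at most 0.00213% of the counts of a library). Groups were taken from the sample titles. Replicates are separate samples of a genotype, and in no pair of the same genotype did the counts agree within counting noise (lowest chi-square divided by its degrees of freedom 4.32). Genes were filtered with filterByExpr (minimum count 10, minimum total 15), scaled by TMM and compared between genotypes with edgeR 4.0.16 (R 4.3.3, quasi-likelihood F test, no covariate), with Benjamini-Hochberg adjustment over all 9264 genes and a threshold of 0.05. Standard errors were derived from the F statistic. Beside it, exact two-sided permutation tests of log2 CPM (prior count 2) gave p = 0.0286, the smallest possible with 4 against 4 libraries, for each of the 7 markers called higher. Counting intervals cover counting error only.

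Alternatives were DESeq2 1.42.0, limma-voom (limma 3.58.1), 4 other scalings, 2 other filters, a test against a log2 change of 0.5, 2 covariates, the replicate number as a block, thinning to the smallest total and leaving out each library. The markers, lists and tests were chosen with earlier results of these data known. Named beside the 10 markers and the 4 PDGF ligands are the 3 genes of highest mean count in each list and stated relatives, and any other gene is said to be named after its values were seen. Upstream windows are from RefSeq (7 of the 10 symbols matched). Figures were drawn with matplotlib 3.10.9.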

Additional observations from a re-analysis of the deposited data

Results flagged for a closer look

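In 5 of the 174 sets of 4 values examined, the gap between the highest or lowest library and its nearest neighbour took a share of the whole range of its genotype above Dixon's 95% critical value, where chance alone gives about 1 in 20 (8.7). None of them was a level of 1 of the 10 markers. Csf1r was at 46.5 CPM in WT replicate 1, against 22.1 to 25.7 CPM in the other WT libraries. In db/db, Cfd reached 899 CPM in replicate 3, where the others had 387 to 467 CPM, and Ly6c2, the monocyte relative of Ly6c1, reached 4.51 CPM in replicate 1, where the others had 0.443 to 1.12 CPM. The summed lymphocyte list was at 3.38 CPM in WT replicate 2, against 0.376 to 0.809 CPM, and its sum in db/db was 8.72 CPM in replicate 1 and 0.636 to 1.77 CPM elsewhere.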

How the results depend on the processing

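The count of 7 markers higher in db/db became 4 where at least 10 counts were asked of every library (the filter removes 3 of the 10), 1 with the muscle list and 0 with the macrophage list as a covariate, and lay between 5 and 7 when a library was left out. The count of 0 lower became 1 without a filter beyond 1 count, 1 with the muscle list, and lay between 0 and 1 when a library was left out, each time Ly6c1. Over all genes, 1466 higher and 1102 lower became 858 and 286 in the test against a log2 change of 0.5, 428 and 155 with the muscle list and 50 and 15 with the macrophage list. With the macrophage list as a covariate the called log2 fold changes of Pi16 (-0.27), Fbn1 (-0.044), Apod (-0.032), Dcn (-0.092), Col15a1 (-0.086), Des (-0.28), Ucp1 (0.099) and Cox8b (0.0056) changed sign, and with the muscle list those of Apod (-0.057) and Des (-0.37), and Ryr1, not called before, moved to -1.51. Among named genes that had not passed, Ly6a changed sign with the macrophage list (-0.87) and the muscle list (-0.09), as did Podxl, while Sparcl1, Fmo2, Klf4, Pnpla2, Crispld2, Cd55 and Ryr1 did so with the macrophage list and Pdgfb and Meox2 with the muscle list. The cause was not tested. Same-numbered libraries did not deviate together (correlations from -0.08 to 0.05), and with the replicate block 7 markers were higher, 0 lower, and 1451 genes higher and 1106 lower in all. Of 8 libraries, 3 correlated best with their own number in the other genotype. Among the named genes only Cspg4 changed its call with the block. DESeq2 and limma-voom each called 7 markers higher, and library totals alone called 6, without Pdgfra. Thinning to the smallest total called 5, since Dpp4 left the test and Pdgfra did not pass (adjusted p = 0.0577), and the test against a log2 change of 0.5 called 5, without Pdgfra and Cd34. No value was computed for markers under the count filter, since all 10 passed. Depth limits Dpp4, with 2 or 3 counts in each WT library, and Pdgfra, with 1 in WT replicate 4.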
